A study of Mus musculus with 12 samples.

Results

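Brown fat thermogenic genes were followed in adrenal medulla dissected from 12 male mice of the C57Bl6 strain, with 1 Affymetrix array per animal. The list held 8 genes, namely Ucp1, Cidea, Elovl3, Ppargc1a, Prdm16, Dio2, Otop1 and Adrb3. Of these, 7 had a probe set annotated to their symbol, 1 each, among 19505 genes, and Adrb3 was not analysed here. The groups were germ-free mice given insulin, germ-free mice given saline, normally colonized mice given insulin and normally colonized mice given saline, with 3 animals in each. Insulin was given intraperitoneally at 2 IU/kg after a fast of 3 h, saline was given in the same volume, and the tissue was taken 90 min after the injection. Germ-free mice carry no microbes, and all animals shared the C57Bl6 background. Ages, and whether animals shared cages or litters, are not given in the sources used here, and p values measure the spread between these animals. Values are log2 RMA intensities, so a difference of 1 is a doubling of signal, and levels of different probe sets are not set against each other.

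The members were chosen by their log2 values across the 4 groups, with earlier results of these arrays known, so levels and group patterns are given as a description and support nothing by themselves. Changes carry, for orientation, the adjusted p of a limma fit over all annotated probe sets, which does not allow for that choice. A gene is called at an adjusted p under 0.05.

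Brown adipocytes burn fatty acids for heat. Noradrenaline from sympathetic nerves raises cyclic AMP in them, lipid droplets are broken down, and the mitochondrial carrier UCP1 lets protons back across the inner membrane without making ATP. The coactivator PGC-1 alpha drives mitochondrial gene expression, and type 2 deiodinase makes the active thyroid hormone that adds to the response. In mice brown adipocytes lie, among other depots, in the fat around the kidney and the adrenal gland. The chromaffin cells of the medulla are not known as a site of Ucp1 expression.

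The 2 upstream sequences shown belong to Ucp1, the uncoupling protein, and Dio2, the only member called for an insulin effect. They are the 250 bases before the RefSeq start of each gene (GRCm38.p6, 5′ to 3′ on the strand of the gene), and capitals mark motifs found on either strand. The full cyclic AMP response element was searched as TGACGTCA. The core of that element, which lies within it, was searched as TGACG. The half-site of nuclear receptors was searched as AGGTCA, and the box that positions the start of transcription in some genes as TATAAA. The Ucp1 window is chr8:83290098-83290347 on the plus strand and the Dio2 window is chr12:90739039-90739288 on the minus strand.
Ucp1: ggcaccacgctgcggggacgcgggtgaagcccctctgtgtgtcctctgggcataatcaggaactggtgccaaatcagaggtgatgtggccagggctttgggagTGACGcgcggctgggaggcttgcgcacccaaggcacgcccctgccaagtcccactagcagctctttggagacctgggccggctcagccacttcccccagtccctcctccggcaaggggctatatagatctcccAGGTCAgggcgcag
Dio2: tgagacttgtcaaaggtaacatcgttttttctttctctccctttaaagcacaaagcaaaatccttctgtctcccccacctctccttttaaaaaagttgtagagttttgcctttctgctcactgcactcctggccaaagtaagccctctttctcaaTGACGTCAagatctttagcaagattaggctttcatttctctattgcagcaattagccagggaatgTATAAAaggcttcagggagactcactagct
Dio2 held the full element TGACGTCA, whose first base lies 95 bases before the start, and 1.55% of 32851 such windows in the RefSeq table held it. Ucp1 held the core TGACG 147 bases and AGGTCA 14 bases before the start, and these motifs were found in 17.8% and 14.0% of all windows. Dio2 therefore counts under both the full element and its core, and it held TATAAA 30 bases before the start, as 12.4% of windows did. Of the 5 members with a window in the table, Ucp1, Dio2 and Ppargc1a held the core and Prdm16 and Otop1 did not. A direct repeat of AGGTCA spaced by 1 base was in none of the 5 windows and in 0.033% of all windows. A match describes these letters alone, and binding was not measured here.

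Markers of the medulla and of its surroundings were both present. Averaged log2 values of 12 chromaffin markers such as Th and Dbh ran from 10.08 to 10.58 in germ-free insulin, 10.84 to 10.96 in germ-free saline, 11.07 to 11.58 in colonized insulin and 10.87 to 11.34 in colonized saline arrays. Adrenal cortex markers (11 genes) ran from 12.07 to 12.64 over all 12 arrays. Arrays of one group correlated at r = 0.987 or more, other than colonized saline, where r was as low as 0.954. The 5222 negative control rows had array medians of 5.30 to 5.54 in germ-free insulin and 5.36 to 5.46 in germ-free saline arrays, against 4.74 to 4.76 in colonized insulin and 4.70 to 4.83 in colonized saline arrays. This offset runs with colonization and cannot be told apart from it for dim probe sets. The 95th percentile of the negative controls lay at 8.25 to 8.41 in germ-free insulin and 8.23 to 8.31 in germ-free saline arrays. It lay at 7.31 to 7.475 in colonized insulin and 7.21 to 7.44 in colonized saline arrays. A value under the percentile of its own array is called not above background, so germ-free arrays have the higher cut-off.

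Ucp1, the uncoupling protein itself, ranged from 4.02 to 11.59 over the 12 arrays. It stood at 11.59, 11.52 and 11.58 in germ-free insulin and at 10.60, 9.63 and 9.45 in germ-free saline arrays. It stood at 4.08, 4.35 and 5.74 in colonized insulin arrays and at 4.02, 10.97 and 10.35 in colonized saline arrays. The germ-free insulin arrays lay above all 9 others and close together, while the colonized saline group split, with animal 1 at the level of the colonized insulin arrays. The group means were 11.56 ± 0.04, 9.90 ± 0.62, 4.72 ± 0.89 and 8.45 ± 3.85 (SD, n = 3) in that order of groups. The 2 middle means, germ-free saline and colonized saline, differed by less than the spread of the colonized saline animals. All 3 colonized insulin arrays and colonized saline animal 1 were not above background for Ucp1, and the other 8 arrays were.

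**Figure D1:**
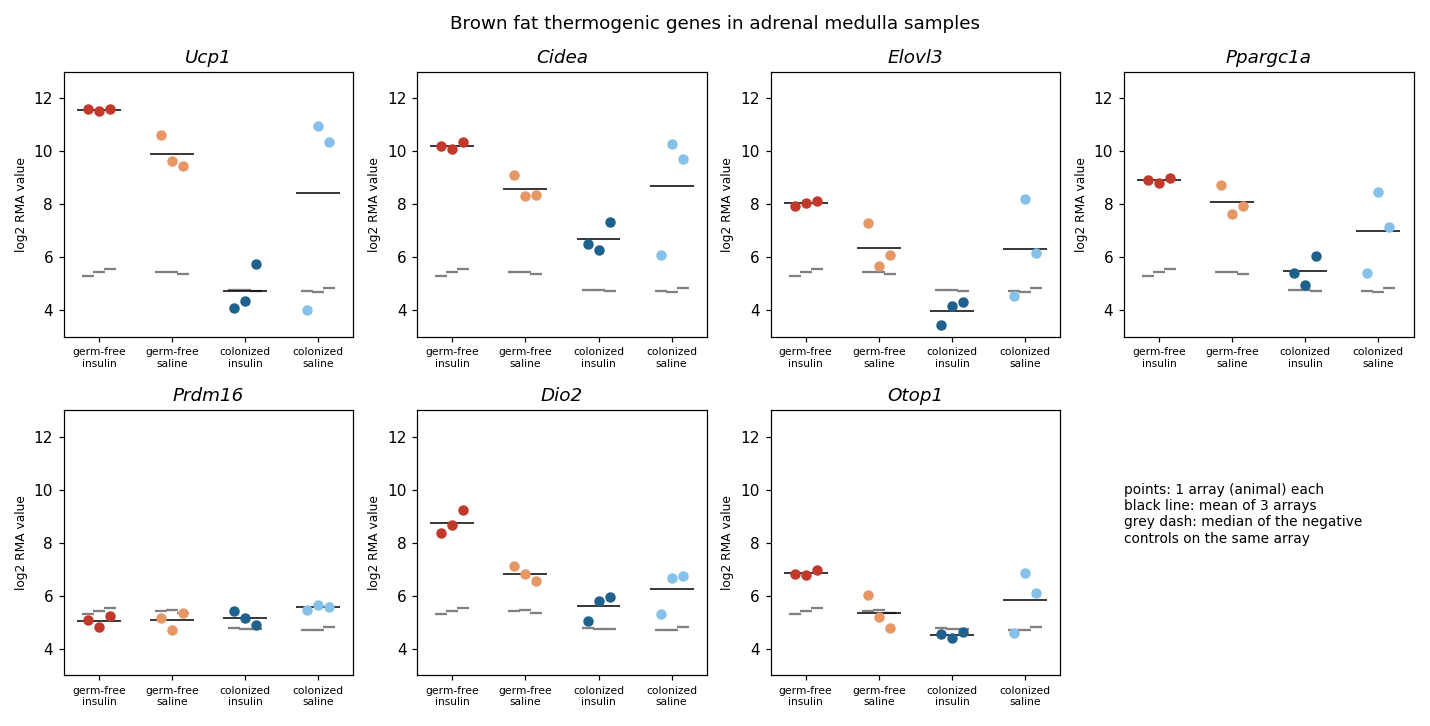
Log2 RMA value (vertical axis) of each thermogenic gene in the 4 groups of 3 arrays, with a point per animal in order of animal number, a black line at the group mean and a grey dash at the median of the negative controls of that array. Germ-free insulin arrays have the highest group mean for 6 genes, colonized saline animal 1 sits with the colonized insulin arrays for Ucp1, Cidea, Ppargc1a, Dio2 and Otop1, and Prdm16 stays near the controls.

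Cidea encodes a lipid droplet protein that promotes droplet growth and is abundant in brown fat. It stood at 10.19, 10.11 and 10.35 in germ-free insulin and at 9.09, 8.30 and 8.37 in germ-free saline arrays. In colonized insulin arrays it stood at 6.52, 6.26 and 7.34, against 6.09, 10.26 and 9.71 in colonized saline arrays. Its order differed from that of Ucp1, because the colonized saline mean (8.69 ± 2.26) was level with the germ-free saline mean (8.59 ± 0.44), and colonized saline animal 2 reached the germ-free insulin range.

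Elovl3, an elongase of very long chain fatty acids that rises in mouse brown fat in the cold, stood at 7.93, 8.06 and 8.13 in germ-free insulin and 7.30, 5.66 and 6.08 in germ-free saline arrays. It stood at 3.44, 4.17 and 4.30 in colonized insulin arrays, against 4.56, 8.21 and 6.18 in colonized saline arrays. The colonized insulin arrays were below all other arrays, colonized saline animal 1 included. Elovl3 was above background on 1 array alone, colonized saline animal 2, so its changes are changes of dim signal. The germ-free insulin values lay under the cut-offs of their own arrays but above those of all colonized arrays. That count therefore does not set animal 2 apart from the germ-free insulin animals.

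Ppargc1a, which encodes PGC-1 alpha, stood at 8.91, 8.81 and 8.98 in germ-free insulin and 8.74, 7.64 and 7.92 in germ-free saline arrays. It stood at 5.42, 4.94 and 6.04 in colonized insulin arrays, against 5.41, 8.46 and 7.16 in colonized saline arrays. Germ-free insulin arrays again lay above all others, by a small step over germ-free saline animal 7. Prdm16 encodes a zinc finger regulator that directs precursors to the brown adipocyte fate. It stood at 5.09, 4.82 and 5.21 in germ-free insulin, 5.14, 4.69 and 5.36 in germ-free saline, 5.40, 5.14 and 4.89 in colonized insulin and 5.46, 5.64 and 5.58 in colonized saline arrays. Its whole range was 0.94, against 2.56 to 7.57 for the other members, it was above background on none of the 12 arrays, and on 5 of them it lay below the negative control median.

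Dio2 encodes type 2 deiodinase, which turns thyroxine into triiodothyronine inside the cell. It stood at 8.36, 8.65 and 9.22 in germ-free insulin and 7.13, 6.81 and 6.56 in germ-free saline arrays. In colonized insulin arrays it stood at 5.04, 5.78 and 5.94, against 5.32, 6.65 and 6.75 in colonized saline arrays. Unlike Cidea, Elovl3 and Otop1, Dio2 in colonized saline animal 2 did not come near its germ-free insulin level, and its value was above background in the germ-free insulin arrays alone. Otop1, a proton channel gene, stood at 6.81, 6.76 and 6.96 in germ-free insulin and 6.03, 5.21 and 4.76 in germ-free saline arrays. It stood at 4.56, 4.40 and 4.62 in colonized insulin arrays, against 4.60, 6.85 and 6.09 in colonized saline arrays. It was above background on no array and lay below the negative control median on 6, among them all 3 colonized insulin arrays.

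Germ-free and colonized mice were compared after insulin. The series is titled as a study of hypoglycaemia, and no glucose values were used here. Ucp1 was higher in germ-free insulin arrays by 6.84 ± 1.33 (SE, limma adjusted p = 0.0110). Because the colonized insulin arrays were not above background, the difference is a bound, at least 18.1-fold against the background of those arrays. Elovl3 was higher by 4.07 ± 0.69 (adjusted p = 0.00640), Cidea by 3.51 ± 0.79 (adjusted p = 0.0206), Ppargc1a by 3.43 ± 0.58 (adjusted p = 0.00606), Dio2 by 3.15 ± 0.36 (adjusted p = 0.00166) and Otop1 by 2.31 ± 0.45 (adjusted p = 0.0105). For these 6 genes every germ-free insulin array lay above every colonized insulin array. Prdm16 changed by -0.11 ± 0.18 and was not called.

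In this comparison 6 of the 7 genes were called higher, against 2.6% of all genes called higher and 7.75% called in either direction, and the median over the 7 was 3.43 against -0.03 over all genes. Groups did not overlap, in the same direction, for 12% of all genes. The bounds for Ppargc1a and Dio2 were at least 2.85-fold and at least 2.56-fold, and no fold is given for Cidea, with 1 of 3 colonized insulin arrays above background, or for Elovl3 and Otop1, which were not above background in either group. Each bound, that of Ucp1 included, was set against the background level of the colonized insulin arrays, 7.31 to 7.475. On germ-free insulin arrays that level was 8.25 to 8.41. The bounds do not allow for this offset and would be smaller against the germ-free level. Elovl3, Ppargc1a and Dio2 kept the call in all 12 fits that left out 1 array. Ucp1 lost it without colonized insulin animal 4 (adjusted p = 0.0528), Otop1 without germ-free insulin animal 12 (adjusted p = 0.0513), and Cidea without colonized insulin animal 4 or 5 or any of the 3 germ-free insulin animals (adjusted p up to 0.0825). Chromaffin markers ran the other way, with 9 of 12 called lower, against 5.15% of all genes, and a median of -1.10, and their part in the result was not tested. Fewer brown fat cells and less RNA per cell cannot be told apart in bulk tissue.

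**Figure D2:**
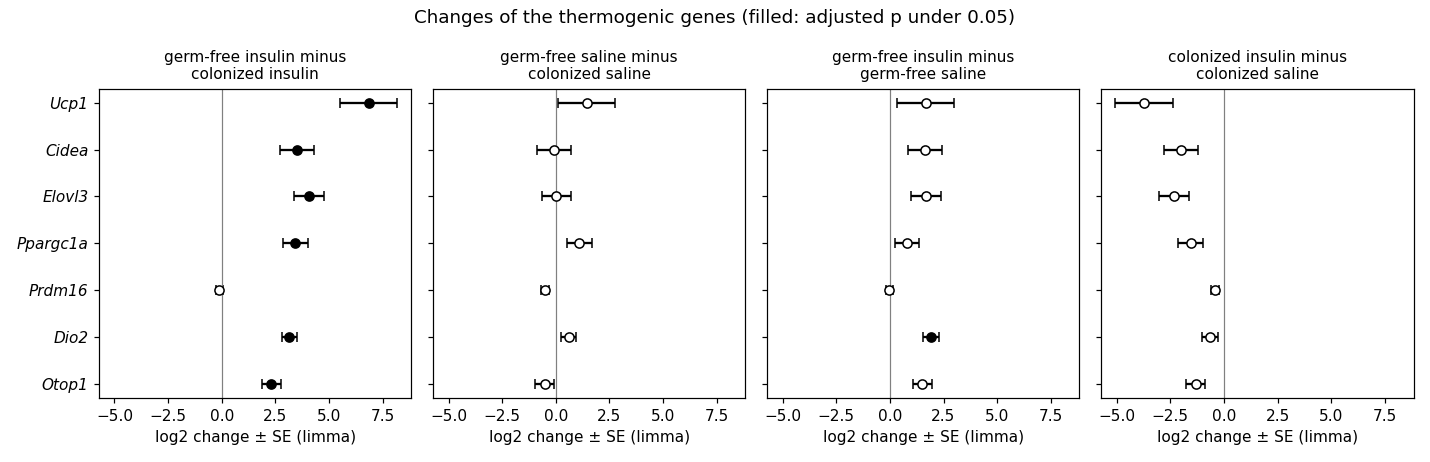
Log2 change (horizontal axis, point) with its limma standard error (bar) for each thermogenic gene in 4 comparisons of 3 against 3 arrays. Filled points passed an adjusted p under 0.05, which 6 genes did between germ-free and colonized mice after insulin and Dio2 alone did between insulin and saline in germ-free mice.

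After saline the same comparison called none of the 7 genes, against 6.88% of all genes called, and 1 of the 7 (Prdm16) had an unadjusted p under 0.05, against 24% of all genes. Ucp1 differed by 1.45 ± 1.33 (95% interval -1.45 to 4.35, adjusted p = 0.555) and Ppargc1a by 1.09 ± 0.58. Cidea (-0.10 ± 0.79), Elovl3 (0.03 ± 0.69), Otop1 (-0.51 ± 0.45) and Dio2 (0.59 ± 0.36) were not called either. The median over the members was 0.03, against -0.04 over all genes. Prdm16, at -0.49 ± 0.18 (adjusted p = 0.116), was the only member whose germ-free saline arrays did not overlap the colonized saline arrays, a pattern found downward in 16.4% of all genes. These estimates rest on the split colonized saline group. Leaving out colonized saline animal 1 turned Ucp1 to -0.76 and brought Cidea to -1.40 (adjusted p = 0.0334), and leaving out animal 2 brought Ppargc1a to 1.82 (adjusted p = 0.0295).

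Insulin was then compared with saline within germ-free mice. Dio2 rose by 1.91 ± 0.36 (limma adjusted p = 0.0458). The germ-free saline arrays were not above background for it, which makes the rise at least 1.38-fold. Otop1 (1.51 ± 0.45, adjusted p = 0.263), Elovl3 (1.69 ± 0.69), Ucp1 (1.67 ± 1.33), Cidea (1.63 ± 0.79) and Ppargc1a (0.80 ± 0.58) had positive changes that were not called, and Prdm16 was at -0.03 ± 0.18. The 3 germ-free insulin arrays lay above the 3 germ-free saline arrays for 6 of the 7 genes, against 9.56% of all genes. Of the 7 genes 1 was called higher, against 0.138% of all genes, and the median over the 7 was 1.63 against 0.01 over all genes. Chromaffin markers ran the other way in this comparison, with all 12 changes below 0 and a median of -0.53. Their part in the changes of the members was not tested. Dio2 kept its call in 4 of the 12 fits without 1 array, those without colonized saline animal 1, 2 or 3 or colonized insulin animal 4, and adjusted p ran between 0.00843 and 0.247 over all 12. The call of Dio2 was also lost with all rows of the table in the fit (adjusted p = 0.0723) and with the trend and robust options (adjusted p = 0.0821). With the 2 germ-free groups alone in the fit, which leaves out the spread of the colonized saline animals, Ucp1 (adjusted p = 0.0193), Cidea (adjusted p = 0.00771) and Otop1 (adjusted p = 0.0306) passed as well. These calls were not set against the number of all genes called in that fit.

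In colonized mice the changes after insulin were all negative and none was called, against 0.149% of all genes called. Elovl3 was at -2.34 ± 0.69 (limma adjusted p = 0.243), with the colonized insulin arrays below the colonized saline arrays. Ucp1 was at -3.72 ± 1.33 (adjusted p = 0.324, 95% interval -6.62 to -0.83), and with the colonized insulin arrays not above background the difference in means is at least 2.08-fold. That bound allows for background alone. It is no lower limit on an insulin effect, since the saline mean includes animal 1, also not above background. Cidea was at -1.98 ± 0.79, Ppargc1a at -1.54 ± 0.58, Otop1 at -1.32 ± 0.45, Dio2 at -0.65 ± 0.36 and Prdm16 at -0.41 ± 0.18. Unadjusted p was under 0.05 for 6 of the 7, against 5.59% of all genes in the downward direction. The median was -1.54, against 0.00 over all genes. Groups did not overlap for Elovl3 and Prdm16, a downward pattern found in 6.54% of all genes. Without colonized saline animal 1, 5 of the 7 were called lower. Among them were Ucp1 at -5.94 (adjusted p = 0.000541) and Cidea at -3.28 (adjusted p = 0.00353). Without any other single array none of the 7 was called. Over the 12 fits without 1 array, the number of all annotated probe sets called in this contrast ran from 1 to 71.

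The difference of the 2 insulin effects, germ-free minus colonized, was positive for all 7 genes and called for none, against 0.0359% of all genes called. It was 5.39 ± 1.88 for Ucp1 (limma adjusted p = 0.373). It was 4.04 ± 0.98 for Elovl3 (adjusted p = 0.196), 3.61 ± 1.12 for Cidea, 2.83 ± 0.63 for Otop1 (adjusted p = 0.157), 2.56 ± 0.51 for Dio2 (adjusted p = 0.113), 2.34 ± 0.82 for Ppargc1a and 0.39 ± 0.25 for Prdm16. No colonized insulin array was above background for any member other than Cidea, which was above it on 1 of 3. These differences therefore rest on dim signal in that group. The unadjusted p was under 0.05 for 6 of the 7, against 4.69% of all genes upward. Without colonized saline animal 1 these 6 genes were called, from adjusted p = 0.000886 for Ucp1 to 0.0391 for Ppargc1a. Without any other single array none of the 7 was. Over the 12 fits without 1 array, the number of all annotated probe sets called for this difference ran from 1 to 83. Whether animal 1 or animals 2 and 3 stand for the colonized saline state was not tested.

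Averaged over both treatments, 4 of the 7 genes were called higher in germ-free mice, against 6.11% of all genes. These were Ucp1 (4.15 ± 0.94, limma adjusted p = 0.0109), Ppargc1a (2.26 ± 0.41, adjusted p = 0.00353), Elovl3 (2.05 ± 0.49, adjusted p = 0.0141) and Dio2 (1.87 ± 0.26, adjusted p = 0.000798), each called in all 12 fits without 1 array. Cidea (1.70 ± 0.56, adjusted p = 0.0554), Otop1 (0.90 ± 0.32) and Prdm16 (-0.30 ± 0.13) were not called. Because the comparisons after saline and after insulin differed in size, the average describes neither treatment alone.

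Relatives of the members were read from the same fit. Ucp3, the uncoupling protein best known from muscle, fell after insulin in colonized mice by 0.94 ± 0.13 (limma adjusted p = 0.0224), standing at 6.21, 6.05 and 6.23 in colonized insulin arrays against 6.98, 7.07 and 7.26 in colonized saline arrays. Ucp3 was above background on none of the 12 arrays, so these are differences of dim signal. After insulin Ucp3 was higher in germ-free mice by 0.83 ± 0.13 (adjusted p = 0.00436). Elovl6, an elongase of fatty acid synthesis, was higher there by 1.17 ± 0.18 (adjusted p = 0.00424), while Elovl4, not above background on any array, was lower, at -0.84 ± 0.23 (adjusted p = 0.0496). Of 19 measured relatives 2 were called higher and 1 lower in that comparison, against 2.6% and 5.15% of all genes, so the share called lower was near that of all genes. The proton channel gene Otop3, also above background on no array, was higher in germ-free mice after saline by 0.84 ± 0.22 (adjusted p = 0.0454). Ppargc1b, Dio1, Dio3 and Otop2 were called in none of the 6 comparisons. Cidec, a lipid droplet gene of white and brown fat, had a large change between germ-free and colonized mice after insulin, 3.79 ± 1.21, that was not called (adjusted p = 0.0772).

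Of 36 other measured genes associated with brown fat, 11 were called higher and none lower in germ-free than in colonized mice after insulin, against 2.6% and 5.15% of all genes, with a median of 0.30. Nrg4, which encodes a secreted factor of brown adipocytes, was higher by 2.84 ± 0.46 (limma adjusted p = 0.00527), Cpt1b, the carnitine palmitoyltransferase of muscle and brown fat, by 2.59 ± 0.48, Fabp3, a fatty acid binding protein, by 2.38 ± 0.54, and the amino acid transporter gene Slc36a2 by 2.18 ± 0.40. None of these 4 was above background on a colonized insulin array. Their changes rest on dim signal in that group, and bounds were not calculated for them. After saline 2 of the 36 were called, both lower, namely Plin5 (-0.89 ± 0.24) and Pank1 (-0.53 ± 0.14), a share near the 6.88% of all genes. Insulin raised Pank1, a kinase of coenzyme A synthesis, in germ-free mice by 0.80 ± 0.14 (adjusted p = 0.0277) and lowered the creatine kinase gene Ckmt1 by 1.50 ± 0.29, which was above background on 1 of these 6 arrays. Slc25a20, the carnitine carrier, was the only one of the 36 called for the difference of the insulin effects (1.06 ± 0.15, adjusted p = 0.0462).

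Genes of fatty acid supply and oxidation moved in part with the members. After insulin 14 of 24 were called higher and 1 lower in germ-free mice, against 2.6% and 5.15% of all genes, with Fabp4, the adipocyte fatty acid binding protein, at 2.11 ± 0.54 and Pdk4, which spares glucose by inhibiting pyruvate dehydrogenase, at 1.99 ± 0.53 (limma adjusted p = 0.0354 and 0.0398). Of the 14 measured genes of the cyclic AMP pathway 2 were called higher and 1 lower there, namely the phosphodiesterase gene Pde3b (2.50 ± 0.63), the kinase subunit gene Prkar2b (0.82 ± 0.19) and Gnas (-0.37 ± 0.10). Counts this small are not read as a change of the pathway. Of 13 thyroid hormone pathway genes Wsb1, which encodes a ubiquitin ligase adaptor that acts on deiodinase 2, was called higher after saline (0.68 ± 0.14, adjusted p = 0.0188) and after insulin (0.52 ± 0.14, adjusted p = 0.0474). No gene of the cyclic AMP or the thyroid list was called for an insulin effect.

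General adipocyte genes were compared because the members are also high in fat tissue. Of 22 such genes, none of them a member, 13 were called higher and none lower in germ-free mice after insulin. Of all genes 2.6% were called higher and 5.15% lower there. The median was 1.77, against -0.03 over all genes. Among those called were Aqp7 (3.02), Dgat2, which makes triglycerides (2.86), and Pparg, the master regulator of adipocytes (2.73). Of the 3 colonized insulin arrays, 1 was above background for Aqp7, 1 for Pparg and 2 for Dgat2. None of the 22 was called after saline, against 6.88% of all genes. None was called for insulin in colonized mice, against 0.149% of all genes, or in germ-free mice, where 0.138% of all genes were called higher. Over the 22, the median change after insulin was -0.93 in colonized mice, with 21 below 0. It was 0.73 in germ-free mice, with 20 above 0. Germ-free insulin arrays lay above germ-free saline arrays for 15 of the 22, against 9.56% of all genes. The difference of the insulin effects was positive for all 22, with a median of 1.77, and called for none. The limma unadjusted p was under 0.05 for 14 of these differences, against 4.69% of all genes. The mean of the 22 genes ran from 10.30 to 10.65 in germ-free insulin, 9.32 to 10.01 in germ-free saline, 7.61 to 9.22 in colonized insulin and 7.84 to 10.61 in colonized saline arrays. Adipoq, the adiponectin gene, stood at 11.18, 11.36 and 11.78 in germ-free insulin and 11.17, 11.10 and 10.02 in germ-free saline arrays. It stood at 4.03, 6.16 and 10.18 in colonized insulin arrays, against 6.04, 11.80 and 10.45 in colonized saline arrays. Colonized saline animal 1 was thus low for Adipoq as for Ucp1, while colonized insulin animal 6 was high for Adipoq and low for Ucp1.

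**Figure D3:**
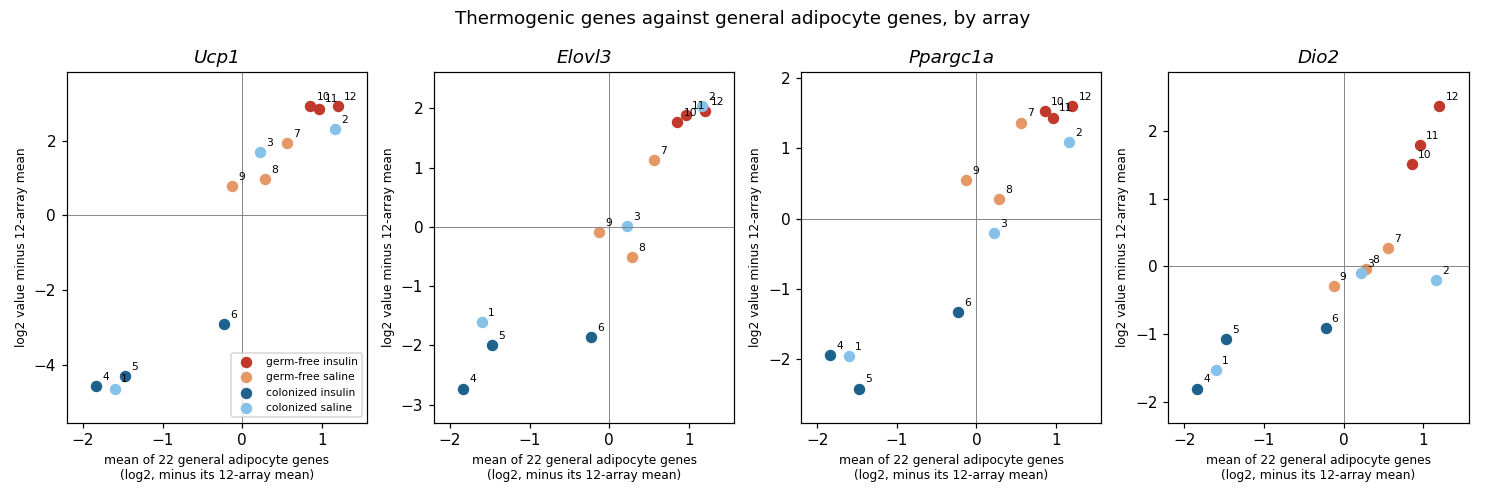
Log2 value of Ucp1, Elovl3, Ppargc1a and Dio2 (vertical axes) against the mean of 22 general adipocyte genes (horizontal axes), each as the difference from its own mean over the 12 arrays, with points numbered by animal. Colonized insulin animal 6 lies left of centre by 0.23 on the horizontal axis but 2.92 below the mean for Ucp1, and colonized saline animal 2 lies level with germ-free insulin animal 12 on the horizontal axis but far below it for Dio2.

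Not every thermogenic gene followed the adipocyte genes one to one. Germ-free saline animal 9 had an adipocyte mean 0.13 below the 12-array mean, close to colonized insulin animal 6 at 0.23 below, yet Ucp1 was 9.45 in the germ-free saline animal and 5.74 in the colonized insulin animal. Ppargc1a was 7.92 against 6.04 and Elovl3 6.08 against 4.30 in the same 2 animals, while Otop1 (4.76 against 4.62) and Dio2 (6.56 against 5.94) were closer. Apart from Ucp1 in the germ-free saline animal, all of these values were not above background, on arrays whose controls differ with colonization. Leptin (Lep), a hormone made mainly by white adipocytes, was 5.33 in germ-free saline animal 9 and 6.98 in colonized insulin animal 6, also not above background. These are single animals, and the differences were not tested.

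In a second pair of animals Dio2 differed the most of the members. Germ-free insulin animal 12 and colonized saline animal 2 had adipocyte means 1.21 and 1.17 above the 12-array mean, and similar values for Ucp1 (11.58 and 10.97), Cidea (10.35 and 10.26), Elovl3 (8.13 and 8.21) and Otop1 (6.96 and 6.85). Ppargc1a was 8.98 and 8.46 and Prdm16 5.21 and 5.64 in the same order. Dio2 was 9.22 in the germ-free insulin animal and 6.65 in the colonized saline animal. The 2 animals also differed outside the members, with averaged liver markers at 7.93 and 11.38 and chromaffin markers at 10.08 and 10.87. They are thus not a matched pair, and their difference was not tested. With the mean of the adipocyte genes as a covariate, the rise of Dio2 after insulin in germ-free mice was 1.50 ± 0.22 (limma adjusted p = 0.00947). Its difference between germ-free and colonized mice after insulin was 1.98 ± 0.31 (adjusted p = 0.0388) in that fit.

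The other members called after insulin were not called in that fit. Ucp1 was at 2.10 ± 0.82 (limma adjusted p = 0.262), Elovl3 at 1.76 ± 0.55, Ppargc1a at 1.41 ± 0.38, Otop1 at 0.87 ± 0.37 and Cidea at 0.69 ± 0.49, all still higher in germ-free mice. Averaged over both treatments, Dio2 (1.20 ± 0.20, adjusted p = 0.00541) and Ppargc1a (1.10 ± 0.24, adjusted p = 0.0177) were called with the covariate. Adipocyte genes and group go together in these arrays, so the fit rests on few animals whose adipocyte level departs from their group.

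**Figure D4:**
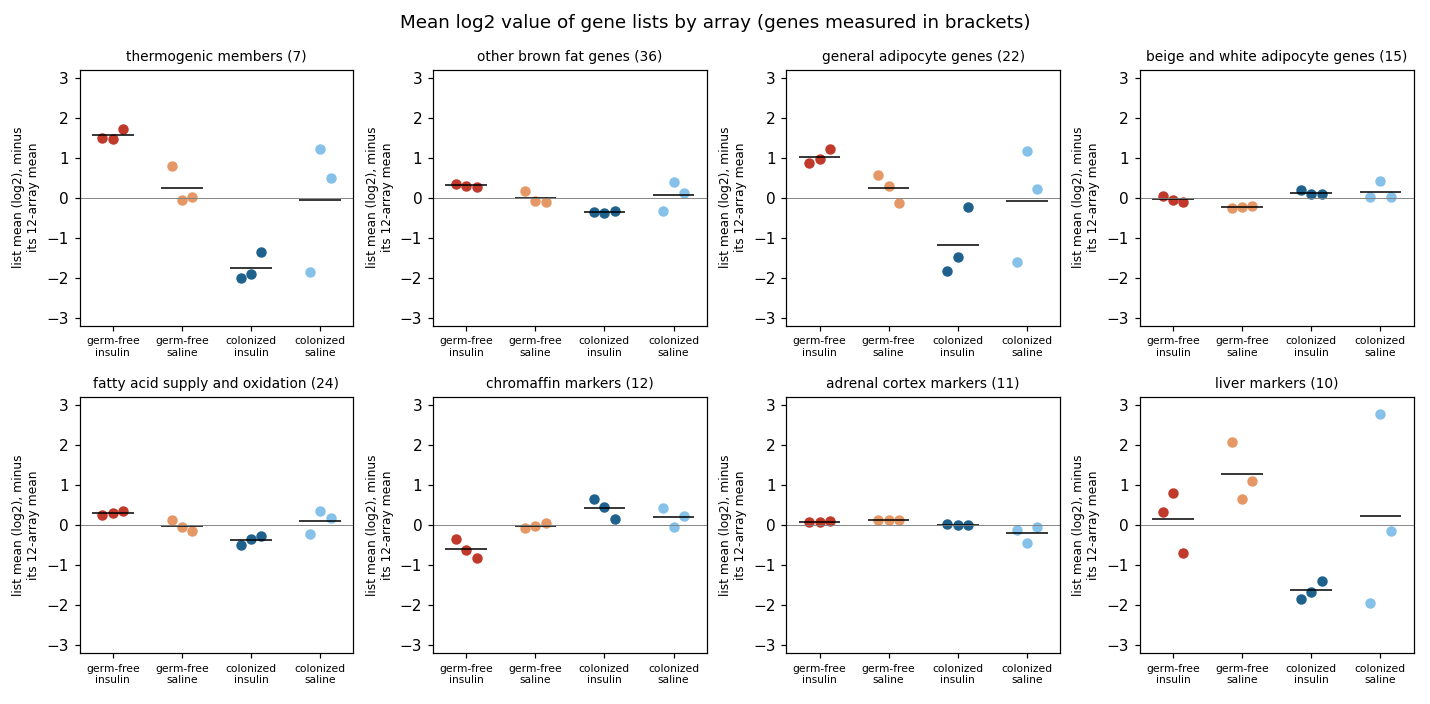
Mean log2 value of 8 gene lists, each minus its own mean over the 12 arrays (vertical axis), in the 4 groups of 3 arrays, with a point per animal and a line at the group mean. The thermogenic and general adipocyte lists have their lowest arrays in colonized insulin and in colonized saline animal 1, while the lists of beige and white adipocyte genes and of adrenal cortex markers move little.

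Other lists varied differently over the arrays. The 15 beige and white adipocyte genes had a median of 0.05 between germ-free and colonized mice after insulin, with Mest called higher (0.61 ± 0.17) and Nnat (-1.51 ± 0.27), Shox2 and Hoxc10 called lower. Shox2 and Hoxc10 were above background on no array. Of all genes 2.6% were called higher and 5.15% lower in that comparison. Mest, which is linked to adipocyte enlargement, also rose after insulin in colonized (1.08 ± 0.17, limma adjusted p = 0.0429) and germ-free mice (1.47 ± 0.17, adjusted p = 0.00231). Liver markers, 10 genes such as Alb, averaged 8.76 ± 0.76 in germ-free insulin, 9.89 ± 0.73 in germ-free saline, 6.99 ± 0.23 in colonized insulin and 8.84 ± 2.38 in colonized saline arrays (SD, n = 3). They were highest in colonized saline animal 2 (11.38), where Elovl3 and Prdm16 were also highest, and lowest in colonized saline animal 1 (6.67), where Ucp1 was low. The highest group mean was that of germ-free saline, and no member had its highest mean there. Skeletal muscle markers (12 genes) stayed between 5.41 and 5.61 on all arrays, near the negative controls, and kidney tubule markers (8 genes) between 5.15 and 5.49. The part of these other cell types in the changes of the members was not tested.

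The members were also compared with each other and with all genes by Pearson r over the 12 arrays, as a description without a test. For Ucp1 the arrays fell into a high set, from 9.45 up, and a low set, up to 5.74. Among the 15 pairs without Prdm16, r ran from 0.851 to 0.970, and from 0.696 to 0.993 once group means were removed. Removing group means keeps the split among the colonized saline animals. For Ucp1 the SD there was 3.85, against 0.04 to 0.89 in the other groups. For the 6 pairs with Prdm16, r ran from -0.328 to 0.032. The genes most like Ucp1 were Aqp7, a glycerol channel gene of adipocytes (r = 0.980), Adtrp, Dgat2, Fam13a, Fabp4, Scd1, Acsm3, Slc36a2, Ndufb9 and Pnpla2 (r = 0.956), of which Aqp7, Dgat2, Scd1 and Pnpla2 were on the general adipocyte list.

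Of the 5 genes nearest to each member, 3 for Otop1 and 2 each for Elovl3 and Ppargc1a were on the brown fat list. For Elovl3 the nearest were Slc4a4, a bicarbonate transporter gene on no list (r = 0.989), Cox7a1, a cytochrome oxidase subunit gene (r = 0.979), Plbd1, Pnpla2 and Fabp3. For Otop1 they were Cox7a1 (r = 0.977), Cpt1b, Gpd2, Fabp3 and Marchf5. Cox7a1 itself was higher in germ-free mice after insulin by 1.85 ± 0.29 (limma adjusted p = 0.00444) and, like Elovl3, lay with its insulin arrays below the saline arrays in colonized mice and above them in germ-free mice. Cox7a1 was above background on 1 colonized insulin array and 1 germ-free saline array.

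Cidea was most like Fasn, the fatty acid synthase gene (r = 0.975), Gpd2, Aqp7, Dgat2 and Scd1. Ppargc1a was most like Slc36a2 (r = 0.969), Mme, Nrg4, Aqp7 and Il15ra. Dio2 was most like Fam126b (r = 0.952), Elovl6, Chchd3, Gstz1 and Agpat2, and shared none of its 5 nearest genes with the other members. For Prdm16 the nearest genes were Fam83b (r = 0.866), Ago4, Tbkbp1, Erbb3 and Rap2b, none of them on a list.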

How the data were processed

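The authors deposited log2 RMA values per probe set for 12 Affymetrix arrays. RMA and limma are named without versions, per the submitters' processing notes. The genome build, and whether RMA ran on all arrays at once, are not stated there. Of 28846 rows, 19572 had 1 gene symbol in the platform annotation (19505 genes, each read from its probe set of highest mean), 0 had several and 9274 had none. The deposited values were used as they stand.

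Groups were taken from the labels. A limma model (version 3.58.1, R version 4.3.3) with a mean for each group was fitted to the 19572 probe sets on 12 arrays, and 6 contrasts were adjusted by Benjamini-Hochberg, with no filter. Errors of changes are standard errors and intervals are 95% intervals of the fit. On simulated data modelled on the insulin effect of colonized mice (19572 probe sets), 82 of 100 log2 changes of 1 and 96 of 100 of 2 were called, with 5 false calls. The changed probe sets were drawn at random, with normal noise of equal spread in all groups. These rates do not describe the members, whose standard errors in that contrast ran from 0.18 (Prdm16) to 1.33 (Ucp1) with a split colonized saline group. All 7 measured members pass the alternative's filter on dim probe sets. The number of arrays limits the precision.

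Members, lists and contrasts were chosen with earlier results of these data known. The text names the members, their relatives, up to 4 called or largest-changing genes per list and contrast, and the genes of highest r (10 for Ucp1, 5 for each other member). The per-array values of Adipoq and Lep, the change of Cox7a1 and the background level (the 95th percentile of the negative controls) were picked with values in view. A bound sets the brighter group's mean against the higher of that percentile, on the dim group's own arrays, and the dim value. It allows neither for the offset of the controls between germ-free and colonized arrays nor for the spread between animals.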

Additional observations from a re-analysis of the deposited data

Results flagged for a closer look

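For Elovl3 the groups separated in opposite directions in the 2 colonization states, although neither insulin effect was called and the gene was above background on 1 of 12 arrays. Every germ-free insulin array lay above every germ-free saline array, and every colonized insulin array lay below every colonized saline array. The insulin effect in germ-free minus that in colonized mice was 4.04 ± 0.98 (limma adjusted p = 0.196), so the difference was tested and not called. It was positive in all 12 fits that left out 1 array, between 3.09 and 4.92, and was called without colonized saline animal 1 (adjusted p = 0.0193).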

How the results depend on the processing

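Over all 7 genes and 6 contrasts, the changes kept direction and call 415 times under other settings, while 10 lost a call, 18 gained one and 5 turned direction. Without 1 array these counts were 457 kept, 15 lost, 19 gained and 13 turned. The number of thermogenic genes called moved under these settings, and Thermogenic here means the 7 measured members. For the insulin effect in germ-free mice (1 called) it was 0 with all rows of the table, 0 with the trend and robust options, 3 with array weights and 4 with the compared groups alone. For the difference of insulin effects (0 called) it was 3 with array weights. For germ-free against colonized after insulin (6 called) it was 1 with the general adipocyte covariate and 5 with the trend and robust options, where Cidea lost its call. For the mean germ-free effect (4 called) it was 7 with array weights, 6 with an adjusted p under 0.1 and with the cortex covariate, 5 with median centring, without the dim probe sets and with the whole table, and 2 with the general adipocyte covariate. These counts were not set against the number of all genes called under the same settings. The causes were not tested.

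Without 1 array, the count ran from 0 to 5 for the insulin effect in colonized mice, 0 to 3 in germ-free mice, 0 to 6 for their difference, 0 to 1 for germ-free against colonized after saline, 4 to 6 after insulin and 4 to 6 for the mean effect. Of all 19572 probe sets, 1 to 71 were called for insulin in colonized mice and 25 to 201 in germ-free mice. For their difference 1 to 83 were called. Between germ-free and colonized mice, 435 to 1938 were called after saline, 451 to 2854 after insulin and 2433 to 4904 for the mean effect.

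Direction turned for changes that were not called. Prdm16 after insulin in germ-free mice was 0.0091 with median centring and 0.0043 with the adipocyte covariate, and ran from -0.21 to 0.12 without 1 array. Prdm16 in germ-free against colonized mice after insulin ran from -0.23 to 0.022. After saline, germ-free against colonized, Elovl3 was -0.30 with the adipocyte covariate, and Cidea was 1.32 and Otop1 0.51 with the cortex covariate. Without 1 array that comparison ran from -0.76 to 2.71 for Ucp1, -1.40 to 0.69 for Cidea and -0.85 to 0.98 for Elovl3. No paired analysis was possible because the groups share no replicate number. Values under the negative control percentile limit Elovl3, Otop1 and Prdm16 throughout.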
